A study of Mus musculus with 4 samples.

Results

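The transcripts of 10 nuclear genes that control the shape and the quality of mitochondria were measured in 2 fractions of the adult mouse heart. These were isolated mitochondria and a fraction named rest. The genes were taken from the table of normalized read counts by name, as a list of factors of mitochondrial fusion (Mfn1, Mfn2, Opa1 and Oma1), of fission (Dnm1l, Fis1, Mff, Mief1 and Mief2) and of damage sensing (Pink1). All 10 are among the 15746 genes of the table, and all 10 passed the filter on low values, which left 12150 genes with 10 or more normalized counts in 2 or more libraries. Both groups came from wild-type (WT) hearts without a genetic or drug treatment, with 2 libraries of the mitochondrial fraction and 2 of the rest fraction. The age and sex of the animals and the number of hearts per library are not given in the sources used here. The rest fraction was the pellet of cell debris from a low-speed spin and was not a cytosol free of mitochondria. The supernatant of the later spin that pelleted the mitochondria was removed and is in neither fraction. The mitochondrial pellet was treated with digitonin, a detergent for membranes that contain cholesterol, and with RNase A, and RNA was isolated afterwards. Because the methods give these steps and an adjusted fragmentation time only for mitochondria, they cannot be told apart from the fraction itself. Nothing in the labels says that the replicates were separate animals, so that p-values measure only the spread between these libraries, which may be technical.

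Mitochondria of the heart form a network that fuses and divides. Mitofusins join the outer membranes of neighbouring mitochondria, OPA1 joins the inner membranes, and the dynamin-like GTPase DRP1 is drawn from the cytosol by adaptors on the outer membrane to cut the organelle. The kinase PINK1 gathers on the surface of damaged mitochondria and marks them for removal by mitophagy. All these proteins are encoded in the nucleus and made by cytosolic ribosomes, some of which lie at the outer membrane.

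The values are numbers of reads per gene, each divided by the size factor of its library, and are called normalized counts here. From the spacing of the values, the mitochondrial libraries held about 47400000 and 32100000 reads on genes and the rest libraries about 26300000 and 23500000. Genes of the mitochondrial chromosome held 97.6% and 93.5% of the total in mitochondria replicates 1 and 2, against 63.2% and 67.5% in rest replicates 1 and 2. A single read was therefore worth 3.87 and 2.55 normalized counts for mitochondria but only 0.264 and 0.365 for rest, and 3 reads corresponded to 11.6, 7.65, 0.793 and 1.10 normalized counts. The members rested on 13 to 711 reads in the mitochondrial libraries and on 99 to 6737 reads in the rest libraries. Exact Poisson intervals at 95% made from these reads cover counting error only, since PCR copies cannot be told apart. The 6 cardiomyocyte markers were present in all libraries, with sums from 195749 to 263874 normalized counts that were set mainly by Myh6, the myosin heavy chain of the adult mouse heart. Of the 6, 4 lay above both rest libraries in both mitochondrial libraries, such as Tnnt2 with 47913 and 33524 against 11712 and 10145 (log2 fold change 1.88, limma adjusted p = 0.0513), Ryr2 lay below (-1.35, limma adjusted p = 0.0755) and Myh6 overlapped. At an unadjusted p under 0.05, 4 of the 6 were higher and 1 was lower, beside 14.1% and 16.2% of all tested genes. With adjustment, 0 of the 6 passed. Markers of other cell types also moved with the fraction. All 5 endothelial markers were lower in both mitochondrial libraries than in both rest libraries (sums of 1569 and 1354 against 2625 and 2385). All 5 fibroblast markers were higher (8188 and 3440 against 2175 and 3063). Of all tested genes, 33.4% lay below and 27.7% above in this way. At an unadjusted p under 0.05, 5 endothelial markers were lower and 1 fibroblast marker was higher. In both lists 0 passed the adjusted test. The 6 blood and immune markers summed to 298 and 369 against 583 and 425 and went in both directions. The red cell markers Hba-a1, Hbb-bs and Alas2 lay below both rest libraries, with Alas2 at 0 in mitochondria replicate 1, the leukocyte markers Cd68 and Ptprc lay above them, and Lyz2 overlapped. The 2 smooth muscle markers listed, of 3, summed to 136 and 423 against 588 and 1374, and of them Myh11, the myosin heavy chain of smooth muscle, was lower in mitochondria at a log2 fold change of -3.40 (limma adjusted p = 0.0427). The nuclear RNAs Malat1 and Neat1 summed to 13629 and 8620 against 42245 and 44838. The part of these differences in the values of the members was not tested. In such fractions, fewer cells of a type, less RNA per cell and the steps that made the fraction cannot be told apart.

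A few short upstream sequences show where motifs that are well known in genes of mitochondrial proteins lie near the start of members of the list. The sequences are the 100 bases before the start of the gene in the GENCODE annotation, read from the RefSeq promoter table for GRCm38.p6, in which all 10 members were found, and all lie on the plus strand. The capitals mark the motif, which in Opa1 matched on both strands with an overlap.
Opa1, chr16:29579234-29579333, with an NRF1 motif: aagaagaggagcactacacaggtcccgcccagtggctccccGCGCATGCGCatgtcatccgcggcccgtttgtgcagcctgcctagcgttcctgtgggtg
Mfn1, chr3:32529365-32529464, with an ETS motif: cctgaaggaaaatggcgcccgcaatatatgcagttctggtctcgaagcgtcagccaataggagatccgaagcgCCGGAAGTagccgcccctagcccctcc
Fis1, chr5:136953175-136953274, with an ETS motif: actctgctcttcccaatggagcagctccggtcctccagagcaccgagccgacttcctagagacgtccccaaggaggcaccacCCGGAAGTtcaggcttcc
Mief2, chr11:60728298-60728397, with an E-box: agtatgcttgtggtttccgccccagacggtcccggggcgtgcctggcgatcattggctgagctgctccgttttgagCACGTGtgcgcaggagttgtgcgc
NRF1 and ETS factors such as GABP bind in front of many genes of the respiratory chain. The motifs GCGCATGC (NRF1), CCGGAAGT (ETS), CACGTG (E-box) and TGACGTCA (the cAMP response element, CRE) were searched on both strands from 250 bases before to 50 bases after the start. Of 32851 such windows of all genes, 2.71% held the NRF1 motif, 3.89% the ETS motif, 7.15% the E-box and 1.79% the CRE. Among the members, 1 held the NRF1 motif (Opa1), 3 the ETS motif (Fis1, Mfn1 and Mief1), 1 the E-box (Mief2) and 0 the CRE. A gene can have several windows, up to 3 for Mfn2. The members are counted per gene and the shares per window, so that they cannot be compared directly. These are matches of letters and not binding sites, and the RNA values of the fractions do not test them.

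The main comparison asked which transcripts differed between the mitochondrial and the rest fraction. No fusion, fission or damage-sensing transcript passed the test. Pink1 had the most positive log2 fold change of the members, at 0.89, followed by Fis1 at 0.76 and Oma1 at 0.63, and Dnm1l had the most negative at -0.46. Log2 values of the normalized count plus 1 were compared with limma's moderated test over the 12150 genes. At a Benjamini-Hochberg adjusted p under 0.05, 0 of 10 members were higher and 0 were lower in mitochondria, against 2.16% of all tested genes higher, 1.39% lower and 3.55% in either direction. At an unadjusted p under 0.05, 2 members were higher (Pink1 and Fis1) and 0 were lower, against 14.1% and 16.2% of all tested genes. In 5 members both mitochondrial libraries lay above both rest libraries (Mfn1, Mfn2, Oma1, Fis1 and Pink1, against 27.7% of all tested genes), in 1 both lay below (Dnm1l, against 33.4%), and in the other 4 the fractions overlapped. The median log2 fold change was 0.26 over the members, with 7 positive and 3 negative values, and -0.14 over all tested genes.

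**Figure D1:**
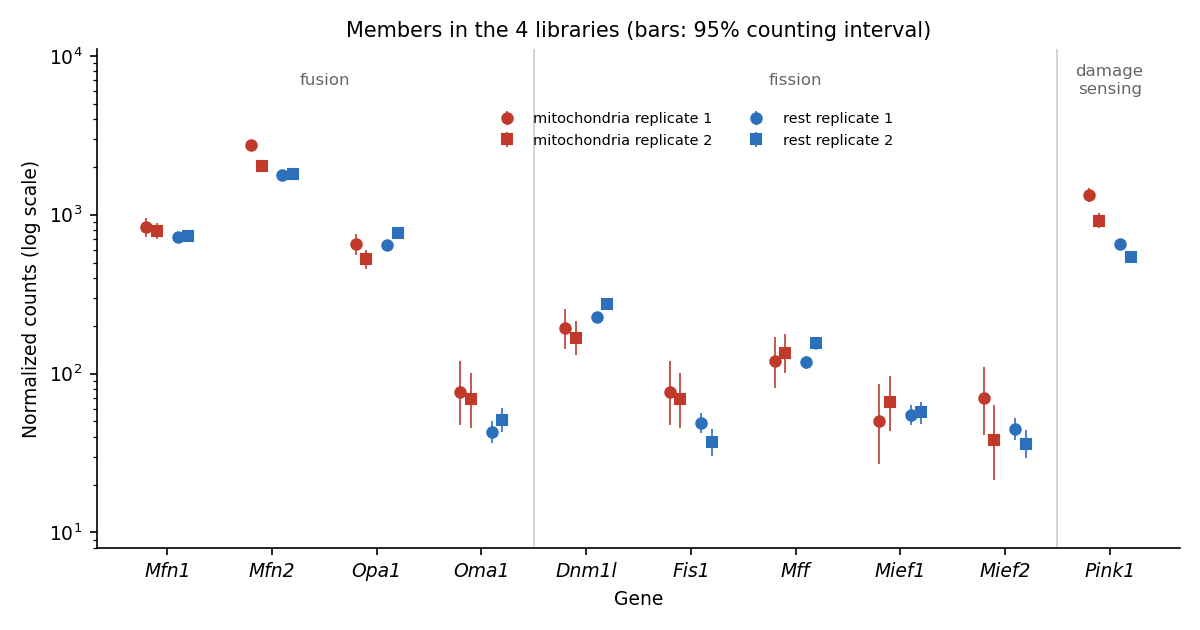
Normalized counts of the 10 members (log axis) in each of the 4 libraries. Circles are replicate 1 and squares replicate 2, red is mitochondria and blue is rest, and bars are exact 95% Poisson intervals from the approximate reads. The intervals are wider in the mitochondrial libraries, where fewer reads lie behind a value. Pink1 has 1332 and 918 in red above 653 and 544 in blue, and Dnm1l has 194 and 168 in red below 226 and 273 in blue.

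The fusion GTPases were the most abundant transcripts of the list with Pink1. Mfn2 (ENSMUSG00000029020, chromosome 4 of GRCm38, minus strand, 147873599 to 147904704) encodes the mitofusin that also tethers mitochondria to the endoplasmic reticulum. It had 2754 and 2018 normalized counts in mitochondria replicates 1 and 2 and 1780 and 1804 in rest replicates 1 and 2. Both mitochondrial values were higher, and the gap between the mitochondrial replicates was wider than the gap between the lower of them and the rest libraries. This was a log2 fold change of 0.40 (SE 0.216, 95% interval -0.17 to 0.96, limma adjusted p = 0.283). Without mitochondria replicate 1 it was 0.17.

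Mfn1 (ENSMUSG00000027668, plus strand of chromosome 3 from 32529465 to 32579239) encodes the other mitofusin, which tethers the outer membranes before they fuse. It had 837 and 793 normalized counts in mitochondria and 722 and 733 in the rest fraction. The fractions did not overlap, but the counting intervals of the mitochondrial libraries, 728.7 to 955.9 and 707.6 to 886.6, both reached the range of the rest libraries. The log2 fold change of 0.16 had a 95% interval from -0.24 to 0.57 (limma adjusted p = 0.507). Parts of annotated Mfn1 transcripts match transcripts of other genes over 75 bases or more at 95% identity or more, so that its count is uncertain where the authors' counting left out reads with several places.

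Opa1 (ENSMUSG00000038084, plus strand of chromosome 16 from 29579334 to 29654884) encodes the GTPase that fuses the inner membranes and keeps the cristae tight. Its values were 651 and 525 normalized counts in mitochondria and 647 and 767 in the rest fraction. The highest mitochondrial value lay just above the lowest rest value, so that the fractions overlapped. On the log2 scale mitochondria and rest differed by -0.27 (95% interval -0.79 to 0.25, limma adjusted p = 0.407).

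Oma1 (ENSMUSG00000035069, plus strand of chromosome 4 from 103313812 to 103371868) encodes the stress-activated protease that cleaves OPA1 and thereby stops fusion of the inner membranes. It had 77 and 69 normalized counts in mitochondria, from 20 and 27 reads, and 43 and 51 in the rest fraction, from 163 and 140 reads. Both mitochondrial values were above both rest values. The log2 fold change was 0.63 with a 95% interval that just included 0 (-0.0027 to 1.26, limma adjusted p = 0.166).

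Of the fission factors, Dnm1l (ENSMUSG00000022789, minus strand of chromosome 16 from 16312230 to 16358959) encodes DRP1, the GTPase that constricts mitochondria. It had 194 and 168 normalized counts in mitochondria and 226 and 273 in the rest fraction. It was the only member of which both mitochondrial values lay below both rest values. The log2 fold change was -0.46 (SE 0.200, 95% interval -0.98 to 0.07, limma adjusted p = 0.203).

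Fis1 (ENSMUSG00000019054, plus strand of chromosome 5 from 136953275 to 136966234) encodes a tail-anchored protein of the outer membrane that takes part in fission. It had 77 and 69 normalized counts in mitochondria, from 20 and 27 reads, and 49 and 37 in the rest fraction, from 185 and 101 reads. Both mitochondrial values were above both rest values, the opposite order to that of Dnm1l. The log2 fold change was 0.76 with a 95% interval from 0.07 to 1.45 (unadjusted p = 0.0370, limma adjusted p = 0.143).

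The remaining fission adaptors had values that overlapped between the fractions. Mff (ENSMUSG00000026150, plus strand of chromosome 1 from 82724890 to 82752394), a main receptor of DRP1 on the outer membrane, had 120 and 135 normalized counts in mitochondria and 118 and 155 in the rest fraction. On the log2 scale the change was -0.09 (95% interval -0.68 to 0.51, limma adjusted p = 0.818). Mief1 (ENSMUSG00000022412, plus strand of chromosome 15 from 80234018 to 80253371) and Mief2 (ENSMUSG00000018599, plus strand of chromosome 11 from 60728398 to 60732951) encode a pair of related adaptors that bind DRP1. Mief1 had 50 and 66 against 55 and 57 normalized counts, a log2 fold change of 0.04 (95% interval -0.64 to 0.71, limma adjusted p = 0.934). Mief2 had 70 and 38 against 45 and 36, a log2 fold change of 0.35 (95% interval -0.65 to 1.36, limma adjusted p = 0.566). The mitochondrial values of Mief1 rested on 13 and 26 reads and those of Mief2 on 18 and 15 reads, so that a small difference was not detectable at this depth. Leaving out 1 library turned the sign for these adaptors. Mff had 0.11 without rest replicate 2, Mief1 had -0.16 without mitochondria replicate 2, and Mief2 had -0.08 without mitochondria replicate 1.

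Pink1 (ENSMUSG00000028756, minus strand of chromosome 4 from 138313409 to 138326307) encodes the kinase that phosphorylates ubiquitin on damaged mitochondria. It had 1332 and 918 normalized counts in mitochondria, from 344 and 360 reads, and 653 and 544 in the rest fraction, from 2472 and 1489 reads. Both mitochondrial values were higher, and the 4 counting intervals did not overlap between the fractions (825.9 to 1018 for the lower mitochondrial value, 627.6 to 679.4 for the higher rest value). The log2 fold change was 0.89 (SE 0.247, 95% interval 0.24 to 1.54, unadjusted p = 0.0171, limma adjusted p = 0.0994), which placed Pink1 at percentile 86.0 of all tested genes. With each library left out in turn it lay between 0.62 and 1.16.

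**Figure D2:**
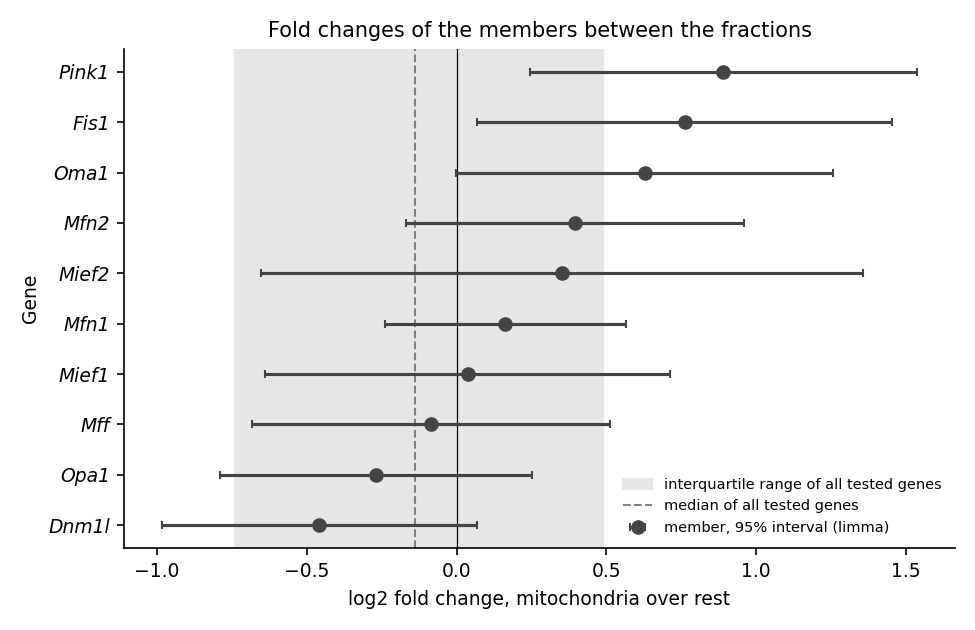
Log2 fold changes of the members, mitochondria over rest, with 95% intervals from limma (points and bars), the median of all 12150 tested genes (dashed line, -0.14) and their interquartile range (grey). Only the intervals of Pink1 and Fis1 lie wholly above 0, and all members lie within the grey range except Pink1, Fis1 and Oma1, which lie above it.

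These directions hold for the authors' size factors, and they depend on the scaling. The 10 members together summed to 6162 and 4799 normalized counts in mitochondria and to 4338 and 4457 in rest. Per 1000000 counts outside the mitochondrial chromosome, they made up 1381 and 905 in mitochondria against 1695 and 1598 in rest, so that the order turned. Under scaling to the library total, the median log2 fold change of all tested genes was -3.93, and all 10 members were lower, from -4.42 for Dnm1l to -3.09 for Pink1, as were 98.9% of the tested genes, while 0.0165% were higher. With the mitochondrial chromosome alone as the reference the median of all tested genes was -4.43, and all 10 were lower again, as were 99.4% of the tested genes, with 0.0165% higher. Scaled to the total without the mitochondrial chromosome, the median gene had -0.98, 31.4% of the tested genes were lower and 1.06% were higher. Dnm1l (-1.32, limma adjusted p = 0.0259), Opa1 (-1.13, 0.0384) and Mff (-0.94, 0.0450) were then among the lower genes, and Pink1 was the only member with a positive value, 0.03 (limma adjusted p = 0.958). Relative to the median gene of the same setting, Pink1 lay between 0.68 and 1.27 above it, Fis1 between 0.70 and 1.10 and Oma1 between 0.61 and 0.89 in the deposited scaling and 15 alternatives (14 for Mief2). Mfn2 lay between 0.23 and 0.73 above the median gene and Mfn1 between 0.07 and 0.42. Dnm1l lay from -0.53 to -0.18 and Opa1 from -0.36 to -0.0025 relative to it, below it in each setting. Mff (-0.14 to 0.25), Mief1 (-0.05 to 0.29) and Mief2 (-0.02 to 0.89) fell on both sides.

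A ratio of 2 members within a library does not depend on its size factor. For 6 such ratios, fixed by the roles of the proteins, each library's value was compared between the fractions. The smallest p that a two-sided exact permutation of 2 and 2 libraries allows is 0.333. The lowest Benjamini-Hochberg adjusted p over the 6 ratios was 0.400. The ratio of Dnm1l to Fis1 differed most. It was 2.52 and 2.43 in mitochondria and 4.61 and 7.38 in the rest fraction, a difference of -1.22 in log2 (exact permutation p = 0.333), and -0.89 without rest replicate 2. The mitochondrial libraries had fewer reads of the GTPase gene for each read of Fis1, with no overlap. The 20 and 27 reads of Fis1 in these libraries limit the precision of this ratio too.

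The ratio of Opa1 to its protease Oma1 was 8.45 and 7.61 in mitochondria and 15.05 and 15.04 in the rest fraction, a difference of -0.90 in log2. The fractions did not overlap (exact permutation p = 0.333), and the 20 and 27 reads of Oma1 in the mitochondrial libraries limit the precision of this ratio more than the spread of 2 libraries shows. Fis1 to Mff, a pair of outer membrane factors, was 0.642 and 0.511 in mitochondria and 0.415 and 0.239 in the rest fraction, a difference of 0.85 in log2 (exact permutation p = 0.333), and 0.46 without rest replicate 2.

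Mfn1 to Mfn2 was 0.304 and 0.393 in mitochondria and 0.406 in both rest libraries, a difference of -0.23 in log2 (exact permutation p = 0.333), and -0.05 without mitochondria replicate 1. The sum of the fusion GTPases (Mfn1, Mfn2 and Opa1) to the sum of the 5 fission factors was 8.30 and 7.01 in mitochondria and 6.39 and 5.92 in the rest fraction, a difference of 0.31 in log2 (exact permutation p = 0.333), and 0.19 without mitochondria replicate 1. Mfn2 alone made up most of this sum. Mief1 to Mief2 was 0.714 and 1.74 in mitochondria and 1.22 and 1.58 in the rest fraction, which overlapped (exact permutation p = 1).

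**Figure D3:**
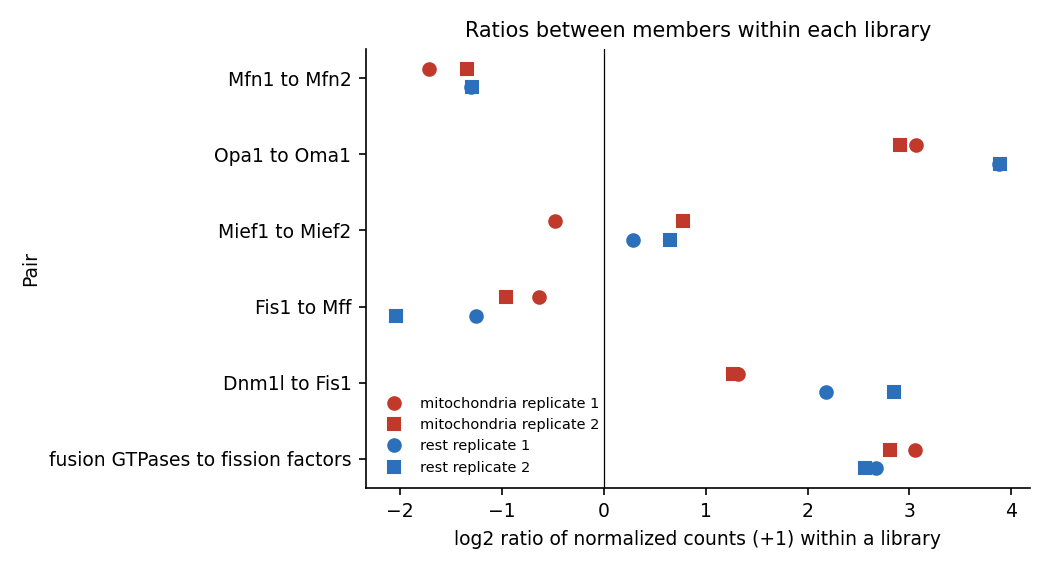
Log2 ratios of normalized counts (plus 1) between members within each library, with mitochondria in red and rest in blue, replicate 1 as circles and replicate 2 as squares. The fractions do not overlap for 5 of the 6 ratios. No such share was computed for ratios of other genes. Of single tested genes, 27.7% lay above and 33.4% below without overlap. The widest separation is that of Dnm1l to Fis1, with mean log2 ratios of 1.30 in mitochondria and 2.52 in rest, and only Mief1 to Mief2 overlaps.

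Exon length moved with these values. Across the 12148 tested genes with an annotated length, Spearman's rho between the log2 fold change and the length of all exons together was -0.381, and over the 10 members it was -0.794. Genes are not independent replicates and share the same 4 libraries, and these are given as descriptions. In the length quartile with the shortest exons the median log2 fold change was 0.59, and in the following quartiles it was -0.03, -0.29 and -0.52. Fis1 (1714 bases), Oma1 (2144 bases), Pink1 (2673 bases) and Mief2 (2716 bases) belong to the shortest quartile, and the first 3 of these had the highest fold changes of the list. Set against the median of their own quartile, Pink1 was 0.30 above it, Fis1 0.17 above it, Oma1 0.03 above it and Mief2 -0.24 from it. Mfn2 (5194 bases) was 0.68 above the median of its quartile, more than any other member, and Mfn1 (6114 bases) was 0.45 above. Dnm1l, of nearly the same length as Mfn2 (5203 bases), was at -0.17 from the same median. In the longest quartile, Mief1 (8106 bases) was 0.56, Mff (9757 bases) 0.44 and Opa1 (7875 bases) 0.25 above the median. The ratios of Dnm1l to Fis1, Opa1 to Oma1 and Fis1 to Mff each pair a gene of the shortest quartile with one of a longer quartile. The part of length in the fold changes and ratios of the members was not tested.

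**Figure D4:**
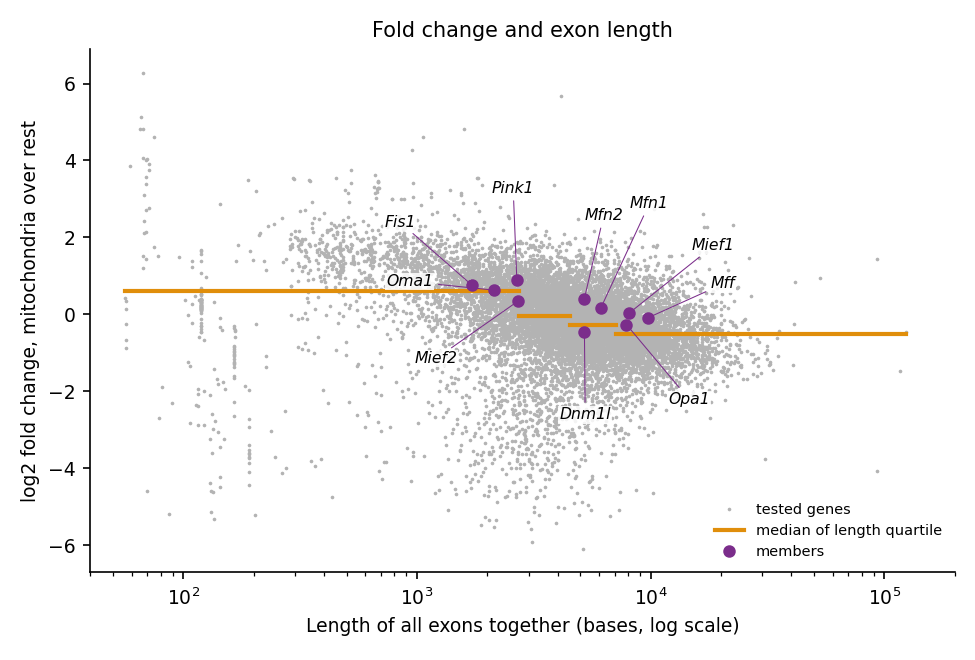
Log2 fold change, mitochondria over rest, against the length of all exons of a gene (log axis). Grey points are tested genes, orange bars the median of each quartile of genes by length (0.59, -0.03, -0.29 and -0.52 from short to long), and purple points the members. Fis1, Oma1, Pink1 and Mief2 sit in the shortest quartile, and Mfn2 and Dnm1l have nearly the same length and lie on both sides of the median of their quartile.

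To compare levels between genes, normalized counts were divided by exon length in kilobases. In mitochondria, the order of mean levels per kilobase was Mfn2 (459), Pink1 (421), Mfn1 (133), Opa1 (74.7), Fis1 (42.6), Dnm1l (34.8), Oma1 (34.0), Mief2 (19.9), Mff (13.1) and Mief1 (7.16). The libraries of Mfn2 and Pink1 overlapped, as did those of Dnm1l and Oma1, and the other neighbours in this order did not. In the rest fraction the order of levels per kilobase was Mfn2 (345), Pink1 (224), Mfn1 (119), Opa1 (89.8), Dnm1l (47.95), Fis1 (25.1), Oma1 (21.9), Mief2 (14.9), Mff (13.99) and Mief1 (6.91). Here Fis1 overlapped with Oma1 and Mief2 with Mff. Fis1 and Dnm1l changed places between the orders, and all other members kept theirs. Overlap here is between libraries and leaves out counting error. Fis1 rested on 20 and 27 reads in mitochondria, with counting intervals of 47.3 to 119.6 and 45.4 to 100.2 normalized counts. Its place in the mitochondrial order is therefore uncertain. The exon length counts all annotated exons, so that a gene such as Mff, with 984 coding bases among 9757 exon bases, has a lower level on this scale than per coding base.

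Some members share exon bases with other annotated genes. Reads that overlapped several genes were left out by the authors, which can lower the counts of these members. Dnm1l shares 243 exon bases with Gm49521 and Mff shares 195 with C430014B12Rik, both on the opposite strand, and whether strand was used in counting is not given in the sources used here. Mief1 shares 213 exon bases on the same strand with the protein-coding gene AC140267.1. Pink1 shares 69 and 110 exon bases with the microRNA genes Mir7019 and Gm27646. No value of these neighbours was used here, and Opa1, Oma1, Fis1 and Mfn1 have no overlapping gene in the annotation.

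The profile of Pink1 over the 4 libraries was closest to those of Smyd2, Zswim9 and Map2k2, at distances of 0.036 to 0.056 between log2 values centred on each gene's mean. Smyd2, a lysine methyltransferase gene, had 120 and 82 normalized counts in mitochondria and 57 and 47 in the rest fraction. In all, 96 tested genes lay within 0.2 of Pink1. The profile of Dnm1l was closest to those of Sgpl1, Ell2 and B230219D22Rik, and 165 tested genes lay within 0.2 of it. Sgpl1, the gene of sphingosine-1-phosphate lyase, had 39 and 33 against 44 and 53. With only 4 libraries such likeness is shared by many genes.

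The other genes of mitochondrial dynamics and mitophagy were described in the same fit, in lists chosen by function. Of 59 tested genes in 4 lists, 5 were higher and 0 were lower in mitochondria at an adjusted p under 0.05, beside 2.16% and 1.39% of all tested genes, and 19 were higher and 4 lower at an unadjusted p under 0.05, beside 14.1% and 16.2% of all tested genes. Each of the 5 and Myh11 lost the call with a pseudocount of 0.1, without the mean-variance trend (limma adjusted p from 0.0711 to 0.0912) and when any 1 library was left out, where limma called 0 genes of the whole table (between 590 and 2333 higher and between 468 and 3324 lower at an unadjusted p under 0.05 with a library left out). By the library total, the values of the 5 turned negative in log2, between -2.73 and -2.05, where the median gene had -3.93. By the total without the mitochondrial chromosome, Micos10 kept its call with a log2 fold change of 1.05 (limma adjusted p = 0.0432), while Micos13 (1.00, 0.0801), Tomm7 (0.87, 0.0633), Apoo (0.57, 0.181) and Chchd3 (0.38, 0.277) lost theirs, where the median gene had -0.98.

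Genes of the cristae junction complex MICOS, which holds the inner membrane folds that OPA1 also shapes, and of the Miro transport machinery had the highest median, 0.92 over 11 tested genes. Of these, 4 were higher and 0 lower at an adjusted p under 0.05, beside 2.16% and 1.39% of all tested genes. The unadjusted p was under 0.05 for 6 higher genes and 1 lower gene, beside 14.1% and 16.2% of all tested genes. Micos10, a core subunit of the complex, had 453 and 380 normalized counts in mitochondria and 110 in both rest libraries (log2 fold change 1.91, limma adjusted p = 0.0427). Micos13, a small subunit at the junction, had 97 and 74 against 25 and 21, a log2 fold change of 1.84 (limma adjusted p = 0.0487). Apoo, another subunit, had 221 and 181 against 74 and 73 (1.43, limma adjusted p = 0.0469). Chchd3, which links the complex to the outer membrane, had 829 and 788 against 329 and 352 (1.25, limma adjusted p = 0.0427). Their exons span 2766, 1169, 1255 and 2905 bases. In the shortest length quartile (up to 2736 bases) 6.65% of the tested genes were higher, and in the next (up to 4532 bases) 1.25%. The lowest log2 fold changes of the list were those of Trak1, a motor adaptor (0.20, limma adjusted p = 0.616), and Rhot1, the gene of the outer membrane GTPase Miro (-0.64, limma adjusted p = 0.136), neither of which passed the test.

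Of the 25 tested genes of mitophagy receptors, adaptors and regulators, which act after PINK1 or beside it, 1 was higher and 0 were lower, with a median of 0.23. That gene was Tomm7, a subunit of the outer membrane translocase that stabilizes PINK1 on damaged mitochondria. It had 136 and 135 normalized counts in mitochondria and 41 and 40 in the rest fraction (log2 fold change 1.72, limma adjusted p = 0.0427). Its exons span 1125 bases, in the shortest length quartile, where 6.65% of the tested genes were higher. Gabarap, a ubiquitin-like protein of the autophagosome, had 275 and 171 against 86 and 90 (1.29, limma adjusted p = 0.0682). Usp30, a deubiquitinase of the outer membrane, had 4 and 26 against 31 and 23 normalized counts, which overlapped (log2 fold change -1.25, limma adjusted p = 0.382, and -0.038 without mitochondria replicate 1), and its value in mitochondria replicate 1 lay below the 11.6 normalized counts of 3 reads. Ambra1, an autophagy regulator, had 27 and 33 against 87 and 72 (-1.38, limma adjusted p = 0.0601).

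The list of inner membrane proteases and prohibitins holds processing enzymes of OPA1 and also proteins of other places, such as Clpp. Its 12 tested genes had a median of 0.43, with 0 higher and 0 lower at an adjusted p under 0.05 by limma. There were 3 higher and 1 lower at an unadjusted p under 0.05. All tested genes had 2.16% and 1.39% by the adjusted and 14.1% and 16.2% by the unadjusted p. Clpp, a matrix protease, had 105 and 48 against 36 and 28 normalized counts (1.14, limma adjusted p = 0.173, and 0.58 without mitochondria replicate 1), and Phb, a subunit of the prohibitin ring, had 294 and 265 against 151 and 128 (1.00, limma adjusted p = 0.0596). Yme1l1, the other protease that cleaves OPA1, had 139 and 122 against 175 and 197 (-0.51, limma adjusted p = 0.164). It lay below the rest fraction in both libraries while Oma1 lay above it. Yme1l1 has 8009 exon bases, in the longest length quartile (median log2 fold change -0.52). Oma1 has 2144, in the shortest (median 0.59). The part of length in this contrast was not tested. Afg3l1, a subunit of matrix-facing proteases, had -0.32 (limma adjusted p = 0.412).

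The 11 tested other fusion and fission factors had a median of -0.25, with 0 genes higher and 0 lower by limma and 1 higher and 1 lower at an unadjusted p under 0.05, beside the same shares of all tested genes. Mtfp1, which promotes fission from the inner membrane, had 128 and 84 against 61 and 49 normalized counts (0.91, limma adjusted p = 0.133), and March5, a ubiquitin ligase of the outer membrane, had 0.25 (limma adjusted p = 0.500). Miga2, which promotes fusion, had 43 and 51 against 132 and 76 (-1.08, limma adjusted p = 0.123), and Inf2, a formin that builds actin at sites of fission, had 50 and 20 against 94 and 46 (-1.03, limma adjusted p = 0.298). Its log2 fold change was -0.39 without mitochondria replicate 2 and -1.67 without mitochondria replicate 1, and that of Miga2 was -0.69 without rest replicate 1.

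**Figure D5:**
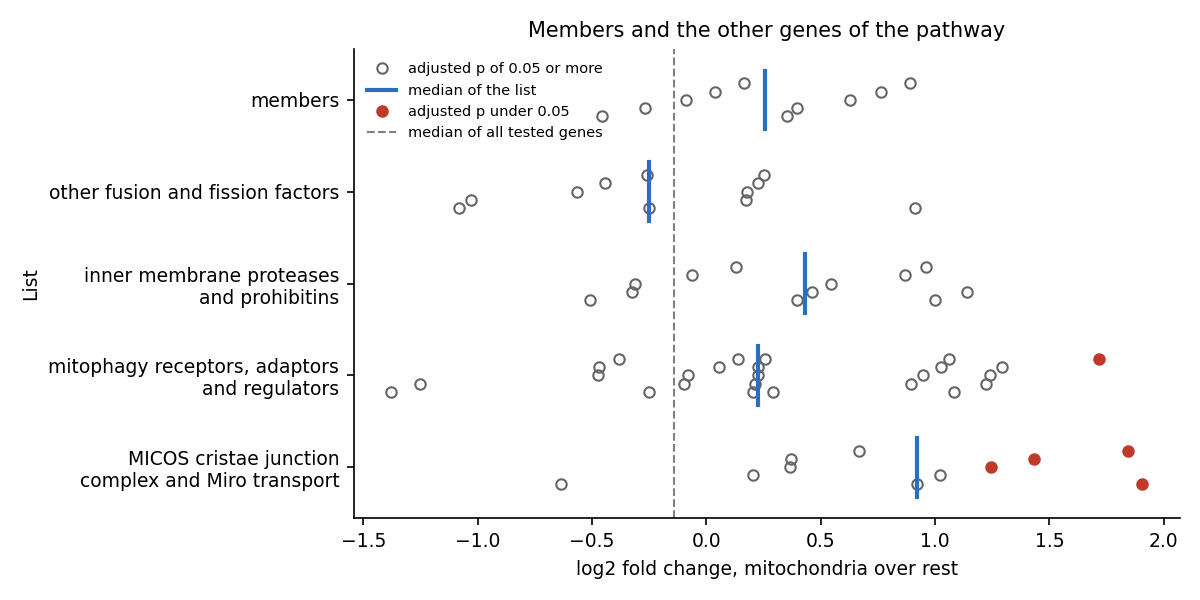
Log2 fold changes, mitochondria over rest, of the 10 members and of the tested genes of 4 further lists in the deposited scaling, with 1 circle per gene, filled in red where the limma adjusted p was under 0.05. Blue bars are the medians of the lists (0.26, -0.25, 0.43, 0.23 and 0.92 from top to bottom) and the dashed line is the median of all tested genes, -0.14. The 5 filled circles are Tomm7 and 4 genes of the MICOS list.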

How the data were processed

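RNA of 2 mitochondrial and 2 rest fractions of WT mouse hearts was sequenced with a stranded total RNA kit from 10 ng of input. Per the labels, the authors used Trimmomatic 0.39, STAR 2.7.10a, mm10 (GRCm38), featureCounts 2.0.2 and DESeq2 1.30.1. The methods of the paper give other versions of STAR, featureCounts and DESeq2. The deposited signal is the count of reads per gene over the library's DESeq2 size factor, which the authors stored as whole numbers after rounding. Reads of several genes or places were left out by the authors, which lowers genes with shared sequence. Columns of annotation were not tested, and 0 columns belonged to other samples.

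Because the values are not raw counts, limma 3.58.1 (R 4.3.3) with a mean-variance trend was fitted to log2(normalized count + 1) without a block, with Benjamini-Hochberg adjustment at 0.05 over 12150 genes with at least 10 in 2 libraries. This scale understates changes of low genes. Approximate reads came from the spacing of the values in each library. Of the 15746 genes, 15736 matched GENCODE M21 (GRCm38), which gave positions and exon lengths, and transcripts were compared with blastn 2.17.0. The steps were tested on simulated data. Of 196 genes with a simulated 4-fold change, limma recovered 96 (49%), with 0 false calls. A missing call therefore does not show equal levels. The spacing step had an error of at most 0.0118%. Ratios were tested with an exact permutation test in scipy 1.17.1, with Python 3.11.15, pandas 2.3.3, numpy 2.4.6 and matplotlib 3.10.9.

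The members and lists were chosen with earlier results of these data known. Named genes are the members, the genes of the other lists and cell type markers past the threshold, the 2 largest and 2 most negative fold changes of each list, and the 3 genes nearest to the members with the most positive and most negative fold change. Cell type and nuclear RNA markers are named from their lists. A gene of the mitophagy list was left out of it and is not reported here. Alternatives were 5 other scalings, 2 filters, pseudocounts of 0.1 and 10, the replicate number as a block, no trend, and each library left out in turn.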

Additional observations from a re-analysis of the deposited data

How the results depend on the processing

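Across 35 named genes and 15 alternatives, 382 values kept their direction and side of the threshold, 40 kept the direction and lost the call, of which 24 with a library left out, 45 gained a call and 54 turned direction. The cause was not tested. By the library total, fold changes (log2) turned to Mfn1 -3.82, Mfn2 -3.59, Oma1 -3.28, Fis1 -3.14, Mief1 -3.85, Mief2 -3.53, Pink1 -3.09, Tomm7 -2.21, Micos10 -2.06, Micos13 -2.05, Apoo -2.52, Chchd3 -2.73, Mtfp1 -3.02, March5 -3.67, Clpp -2.76, Phb -2.96, Gabarap -2.66, Trak1 -3.78, Smyd2 -3.00, Zswim9 -2.98 and Map2k2 -3.07. Scaled to the total of the mitochondrial chromosome, they were Mfn1 -4.36, Mfn2 -4.14, Oma1 -3.81, Fis1 -3.67, Mief1 -4.37, Mief2 -4.06, Pink1 -3.64, Tomm7 -2.75, Micos10 -2.61, Micos13 -2.58, Apoo -3.06, Chchd3 -3.28, Mtfp1 -3.55, March5 -4.21, Clpp -3.29, Phb -3.51, Gabarap -3.21, Trak1 -4.33, Smyd2 -3.53, Zswim9 -3.52 and Map2k2 -3.61. Without the mitochondrial chromosome in the total, they were Mfn1 -0.70, Mfn2 -0.47, Oma1 -0.22, Fis1 -0.088, Mief1 -0.81, Mief2 -0.49, March5 -0.60 and Trak1 -0.66. With a library left out, Mief2 ranged from -0.081 to 0.78, Trak1 from -0.11 to 0.51, Mief1 from -0.16 to 0.23 and Mff from -0.28 to 0.11.

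No member was higher under any alternative. Members lower numbered 10 by the library total, 3 without the mitochondrial chromosome, 10 by the mitochondrial chromosome and 0 otherwise. Of all genes, 2 were higher and 12022 lower by the library total, 129 and 3819 without the mitochondrial chromosome, 2 and 12076 by the mitochondrial chromosome, 394 and 255 with recomputed median ratios, 680 and 404 by the upper quartile, 790 and 670 of 5556 genes with a mean above 50 (Mief2 was not tested there), and 536 and 580 with a pseudocount of 10. Without a filter 279 were higher and 630 lower, and without a trend 24 and 143. By limma 0 and 0 were called with a pseudocount of 0.1 (1694 and 1754 at an unadjusted p under 0.05) and from 0 to 0 with a library left out, where a fraction of 1 library is assumed to vary like the other. The ratio of Opa1 to Oma1 moved to -0.81 with a pseudocount of 10.

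The replicate block gave 470 genes higher and 309 lower and called 0 members (Pink1 at a limma adjusted p of 0.0551). The labels give only a number for the pairing, and the replicate differences of the fractions correlated at r = 0.13 across genes, which with 2 pairs does not show a pairing. The 13 to 53 reads behind Oma1, Fis1, Mff, Mief1 and Mief2 in the mitochondrial libraries limit their precision.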
